A study of Mus musculus with 12 samples.

Results

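The OAS family consists of the 2-5A synthetases, interferon-induced enzymes of the cytoplasm, and their synthetase-like relatives. It was followed here through Oas1a, Oas2, Oas3, Oasl1 and Oasl2, in dendritic cells (DCs) of mouse spleen. Members were the probe sets of the array annotated to only one of these symbols. This gave 5 probe sets, 1 for each gene, of 45101 on the array. They are 1424775_at (Oas1a), 1425065_at (Oas2), 1425374_at (Oas3), 1424339_at (Oasl1) and 1453196_a_at (Oasl2), and all 5 genes lie on mouse chromosome 5.

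The 4 groups crossed genotype with treatment. Treated aly mice and treated WT mice received 25 micrograms of LPS, the bacterial ligand of Toll-like receptor 4, together with 100 micrograms of the agonistic anti-CD40 antibody FGK4.5 into the peritoneum, and DCs were taken 6 hours later. Untreated aly and untreated WT mice received neither. Alymphoplasia (aly) mice carry a point mutation of Map3k14, which encodes the kinase NIK of the non-canonical NF-kB pathway, in every cell of the body and not in DCs alone. The mice called wild type (WT) are heterozygous littermates, so that the controls also carry 1 mutant allele. Ages and strain were not given in the labels. There were 3 arrays per group, each with RNA of splenic DCs pooled from 3 mice, selected on CD11c beads and sorted by flow cytometry, so p-values measure the spread between pools. RNA was amplified and labelled for Affymetrix arrays, and the deposited values are intensities on a linear scale.

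Members of the family bind double-stranded RNA, and the active synthetases then join ATP into 2-5A, short chains of adenosine with unusual linkages. The chains are a signal of the antiviral state of an infected cell. Oas1a is an active member of the mouse Oas1 cluster. Oas2 and Oas3 carry several synthetase units in tandem, and Oas3 senses long double-stranded RNA. Oasl1 does not make 2-5A, and in mice it holds back translation of the mRNA of Irf7, a transcription factor of type I interferon genes. Oasl2 is an active synthetase in mice and, as Oasl1, carries ubiquitin-like domains at its end. Interferons raise the family through factors such as Stat2 and Irf9, which act at the interferon-stimulated response element (ISRE), and in DCs LPS is a known trigger of interferon release.

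The promoters are shown because this response element is the usual site through which interferon acts on the family. RefSeq promoters of build GRCm38.p6, from 250 bases before to 50 bases after each gene's start, were found for 4 of the 5 members, Oas2 being the member with no entry. Capitals mark matches to the ISRE core GAAANNGAAA.
Oas1a, chr5:120907476-120907775, minus strand: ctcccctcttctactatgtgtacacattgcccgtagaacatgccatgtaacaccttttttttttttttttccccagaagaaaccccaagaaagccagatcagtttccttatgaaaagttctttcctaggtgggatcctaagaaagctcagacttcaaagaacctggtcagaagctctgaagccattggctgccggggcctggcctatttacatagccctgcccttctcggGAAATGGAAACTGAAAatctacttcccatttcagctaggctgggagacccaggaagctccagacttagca
Oas3, chr5:120777610-120777909, minus strand: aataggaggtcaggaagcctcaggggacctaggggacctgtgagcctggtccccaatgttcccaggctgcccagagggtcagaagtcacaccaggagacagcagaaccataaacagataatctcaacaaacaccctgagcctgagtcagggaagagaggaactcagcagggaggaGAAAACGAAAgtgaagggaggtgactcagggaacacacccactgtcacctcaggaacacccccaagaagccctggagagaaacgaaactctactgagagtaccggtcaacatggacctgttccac
Oasl1, chr5:114922990-114923289, plus strand: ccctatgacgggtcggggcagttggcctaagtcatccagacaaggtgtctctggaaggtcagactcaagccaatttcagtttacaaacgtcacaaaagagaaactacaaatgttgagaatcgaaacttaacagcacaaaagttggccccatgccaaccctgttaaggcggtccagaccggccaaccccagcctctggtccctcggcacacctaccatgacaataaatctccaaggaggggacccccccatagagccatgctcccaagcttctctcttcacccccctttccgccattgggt
Oasl2, chr5:114896684-114896983, plus strand: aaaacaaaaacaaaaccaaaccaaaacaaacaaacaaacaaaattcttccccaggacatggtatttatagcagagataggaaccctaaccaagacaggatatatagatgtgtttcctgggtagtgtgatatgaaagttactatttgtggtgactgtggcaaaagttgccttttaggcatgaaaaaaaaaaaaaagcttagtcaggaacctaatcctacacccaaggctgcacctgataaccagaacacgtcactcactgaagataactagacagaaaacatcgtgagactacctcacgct

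The Oas1a promoter held 2 overlapping ISRE matches that begin 20 and 14 bases before the start. The Oas3 promoter held 1, which begins 75 bases before the start. No match was present in these windows of Oasl1 and Oasl2. Both strands were searched. The ISRE core was found in 3.44% of all 32851 promoters of this length and in 8 of 20 promoters of the other interferon-stimulated genes listed here. The gamma-activated site, TTCNNNGAA, was found in Oas1a alone among the 4 promoters, in 8.3% of all promoters, and in 5 of the same 20. The kappa B site GGGANNTTCC, the letters bound by NF-kB, was found in none of the 4, in 1.47% of all promoters and in 3 of the 20. A match describes the letters of these windows and no binding was measured. The Oas1a and Oas1g promoters share 261 of 294 aligned bases (88.8%), and Oas1g has the same overlapping ISRE pair. Oas1g has no probe set annotated to it alone, and the probe sequences of 1424775_at were not used here, so a share of Oas1a signal from close copies was not tested.

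All 5 probe sets passed the filter on low values, which asked for a value above an array's 40th percentile on 3 or more arrays and kept 34205 probe sets. Oas3 and Oasl1 were above that percentile on 2 of 3 untreated aly arrays, and the 5 members were above it on all 3 arrays in every other case. Fold changes and tests use log2(intensity + 16) and limma over all 12 arrays, with p-values adjusted over all 34205 probe sets, and a probe set was called at an adjusted p under 0.05. The added 16 makes fold changes of low values smaller than the ratio of intensities. Log2 changes are given with their standard error.

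Treated aly replicate 1 stood apart from the other arrays. Its ratio of 3' to 5' Actb signal was 55.8, against 1.78 to 5.92 on the other aly arrays and 1.39 to 1.94 on WT arrays, its hybridisation controls averaged 28528.9 against 2457.5 to 5767.7 on the other 11 arrays, and its rank correlation with the others was at most 0.648. Results of the 5 members are therefore given with and without this array, and those of the related gene lists by their counts without it. The 3' to 5' ratio of Gapdh was 45.7 on treated aly replicate 1 and 20.7 on treated aly replicate 2. It was 8.46 on treated aly replicate 3, 7.10 to 14.1 on untreated aly arrays and 4.58 to 8.73 on WT arrays. Fits without treated aly replicate 1 thus keep another array with a raised Gapdh ratio, and its part in the OAS values was not tested. The poly-A spike-in controls averaged 4.39 to 20.4 on replicate 1 of every group and 48.0 to 441.8 on replicates 2 and 3, so values within these sets are given too. All 6 DC markers were above the 40th percentile on every array. Signals of the 10 red pulp macrophage markers (C1qa, Vcam1, Spic and others) summed to 29902.3 to 60586 on treated aly arrays and 41479 to 67945.5 on untreated aly arrays, against 1749.5 to 13902.3 on treated WT arrays and 1541.9 to 15579.4 on untreated WT arrays. Signals of the 5 erythroid markers on the array, of 8 listed, summed to 473.4 to 2862.8 on treated aly arrays and 734.2 to 1872.8 on untreated aly arrays, against 21.7 to 336.4 on treated WT arrays and 20.2 to 199.1 on untreated WT arrays. All 10 macrophage markers were above the 40th percentile on every array. In pools of cells, fewer cells of a type and less RNA per cell cannot be told apart.

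**Figure D1:**
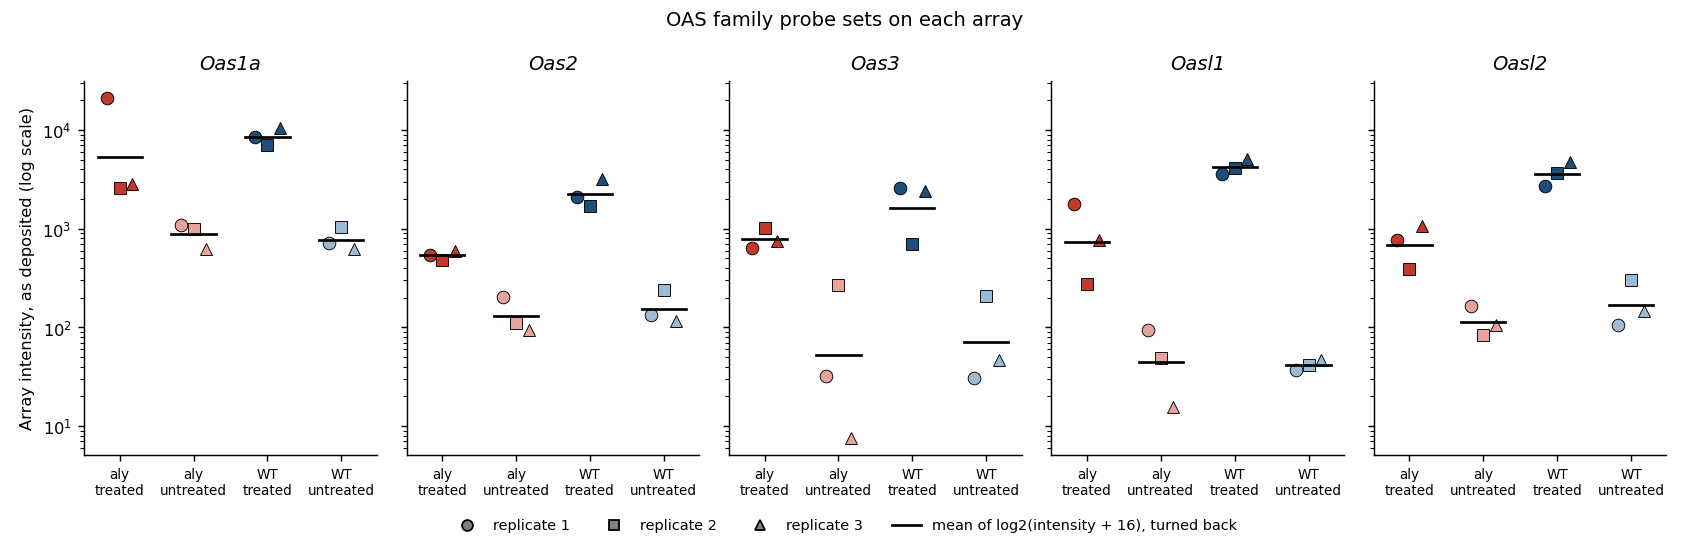
Intensity of the 5 OAS family probe sets on each of the 12 arrays, on a log scale. Each point is 1 array and its shape gives the replicate number, and the bar is the group mean of log2(intensity + 16) turned back to intensity. Treated WT arrays are highest for Oas2, Oasl1 and Oasl2, whereas for Oas1a the highest value, 21099.8, is on treated aly replicate 1.

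In WT DCs the treatment raised all 5 members, from 10.8-fold for Oas1a to 73.2-fold for Oasl1. Over all probe sets tested, 3.82% were called higher in this comparison. The median log2 change of the 5 members was 4.25, against -0.07 over all 34205.

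Oas1a, an active synthetase, had intensities of 8473.8, 7071.8 and 10405.4 in treated WT DCs, against 725.3, 1047.8 and 616.9 in untreated WT DCs. Every treated array lay above every untreated one. Its log2 change was 3.43 ± 0.60 (10.8-fold, adjusted p = 0.00168).

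Oas2 had intensities of 2109.3, 1710.4 and 3211.2 in treated WT DCs, against 133.7, 239.1 and 115.8 in untreated WT DCs. The groups did not overlap, and untreated replicate 2 was the highest of the untreated arrays. This gave a log2 change of 3.73 ± 0.40 (13.3-fold, adjusted p = 1.79e-05).

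Oas3, the synthetase for long double-stranded RNA, had intensities of 2590.3, 696.5 and 2436.7 in treated WT DCs, against 30.7, 209.3 and 47.0 in untreated WT DCs. The groups did not overlap, but replicate 2 was the lowest of the treated and the highest of the untreated arrays. The log2 change was 4.25 ± 0.76 (19.0-fold, adjusted p = 0.00199). It was 5.80 between the replicate 1 arrays and 3.47 within replicates 2 and 3 (adjusted p = 0.0279).

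Oasl1, the inhibitor of Irf7 translation, had intensities of 3588.1, 4151.5 and 5045.2 in treated WT DCs, against 37.2, 41.8 and 47.0 in untreated WT DCs. Both groups were tight, with means of 4262 ± 735 and 42.0 ± 4.9 (SD, n = 3 each). The log2 change was 6.19 ± 0.55 (73.2-fold, adjusted p = 2.73e-06), the third largest rise of all probe sets tested. The untreated values are small enough for the added 16 to set the size of this fold: the log2 change was 6.62 with an added 1 and 5.34 with an added 64.

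Oasl2 had intensities of 2683.6, 3691.4 and 4747.5 in treated WT DCs, against 105.2, 306.0 and 147.4 in untreated WT DCs. The groups did not overlap. Oasl2 rose by a log2 change of 4.29 ± 0.46 (19.6-fold, adjusted p = 1.65e-05).

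The 5 calls in WT DCs held under each alternative fit and each omission of 1 array. Without treated aly replicate 1, which enters this comparison only through the shared spread, 6.43% of all probe sets were called higher and the members' adjusted p-values lay between 2.32e-08 and 0.000452. Within replicates 2 and 3 the log2 changes were 3.39 to 6.25, and all 5 were called, with 1134 of all probe sets called higher. Marker sums of several cell types moved with treatment in WT. The 6 DC markers summed to 17120.7 to 25894.8 on treated WT arrays, against 28603.1 to 31824.7 on untreated WT arrays, and the 6 plasmacytoid DC markers to 1875.6 to 2766.5, against 755.1 to 1063.4. The genes of the plasmacytoid list did not move together. Bst2 and Tcf4 were called higher, and Ccr9 was called lower (-2.61, adjusted p = 0.006). Siglech was not called, with a mean of 10.8 on treated and 27.6 on untreated WT arrays. The 6 endothelial and stromal markers summed to 634.5 to 1441.1 on treated WT arrays, against 150.7 to 246.3 on untreated WT arrays, and the sums of 5 natural killer cell markers, given with Ifng, did not overlap either. In the endothelial and stromal list only Kdr had a higher mean on treated WT arrays, 1102.7 against 83.6. The means of Pecam1, Cdh5, Col1a1, Col3a1 and Pdgfrb were lower there, and none of these was called. Among the genes called higher were Bst2 of the plasmacytoid list, which is also an interferon-stimulated gene, Kdr of the endothelial list, and Spic, 1 of 10 red pulp macrophage markers (2.52, adjusted p = 0.00789), although the summed macrophage signal overlapped. Gzma of the natural killer list was called higher. Of the monocyte list, Cd14 was called higher (2.75) and Ccr2 and Lyz2 lower (-2.32 and -2.43), and its sums overlapped. The 4 T cell markers on the array summed to 23.8 to 83.6 on treated WT arrays, against 86.3 to 189.4 on untreated WT arrays, and none was called. The part of these cell types in the OAS changes was not tested.

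In aly DCs the treatment raised Oasl1 and Oasl2. Oas1a, Oas2 and Oas3 did not pass the threshold. Over all probe sets tested, 0.257% were called higher. The median log2 change of the 5 members was 2.59, against 0.01 over all probe sets. Marker sums overlapped between treated and untreated aly arrays for red pulp macrophages and erythroid cells. They did not for the plasmacytoid DC markers (1216 to 3689 on treated, against 804.1 to 1151 on untreated aly arrays) or the endothelial and stromal markers (623.5 to 1248.6, against 254 to 429.9). Bst2 and Kdr rose most in these lists, with means of 1509.2 and 803.3 on treated and 358.3 and 182.3 on untreated aly arrays. The means of Ccr9, Ly6d, Cdh5, Col1a1 and Col3a1 were lower on treated aly arrays, and the others were higher. No gene of either list was called in aly DCs, and the part of these cell types in the OAS changes was not tested.

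Oasl1 had intensities of 1787.1, 275.8 and 777.1 in treated aly DCs, against 94.7, 49.2 and 15.8 in untreated aly DCs. The treated arrays were spread widely, with replicate 1 the highest and replicate 2 the lowest, and none of them overlapped the untreated arrays. The log2 change was 3.61 ± 0.55 (12.2-fold, adjusted p = 0.00726). Leaving out treated aly replicate 1 gave 2.97 ± 0.48 (adjusted p = 0.00907).

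Oasl2 had intensities of 777.5, 393.5 and 1060.3 in treated aly DCs, against 164.7, 83.5 and 105.7 in untreated aly DCs. The groups did not overlap. The log2 change was 2.44 ± 0.46 (5.43-fold, adjusted p = 0.0334), and without treated aly replicate 1 it was 2.35 ± 0.47 (adjusted p = 0.0442).

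Oas2 had intensities of 542.5, 479.8 and 600.1 in treated aly DCs, against 205.9, 111.3 and 94.6 in untreated aly DCs. The treated arrays were the tightest of any member in this group, with a mean of 540.8 ± 60.2 (SD, n = 3). The log2 change of 1.92 ± 0.40 had an adjusted p = 0.0548, with a 95% interval of 1.08 to 2.77. It was 1.92 ± 0.42 without replicate 1 (adjusted p = 0.0674).

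Oas3 had intensities of 638.0, 1026.3 and 750.0 in treated aly DCs, against 32.3, 272.2 and 7.6 in untreated aly DCs. Untreated replicate 2 was again the highest of its group, as in WT, and on the log2 scale the untreated values had the largest SD of the 5 members (1.86). The log2 change of 3.54 ± 0.76 had an adjusted p = 0.0592, with a 95% interval of 1.95 to 5.14. It was 3.69 ± 0.80 without replicate 1 (adjusted p = 0.0651).

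Oas1a had intensities of 21099.8, 2579.7 and 2814.0 in treated aly DCs, against 1101.1, 988.7 and 622.6 in untreated aly DCs. Treated aly replicate 1 alone exceeded every treated WT array, while the other treated aly arrays lay below all of those. The log2 change was 2.59 ± 0.60 (adjusted p = 0.0926), and without replicate 1 it was 1.60 ± 0.38 (adjusted p = 0.103).

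Without treated aly replicate 1, 0.225% of probe sets were called higher in aly DCs, and Oasl1 and Oasl2 were the members called. Which members passed moved with the arrays: over the 12 omissions of 1 array, Oasl1 was called in 11 and Oasl2 in 6, and 0 members were called without untreated aly replicate 3 (adjusted p = 0.0818 for Oasl1 and 0.161 for Oasl2). With treated aly replicate 2 left out 3 members were called, Oas1a in addition (adjusted p = 0.0354), and with treated aly replicate 3 left out Oas1a was called and Oasl2 was not (adjusted p = 0.0453 and 0.0678). With untreated aly replicate 2 left out Oas3 was called and Oasl2 was not (adjusted p = 0.0259 and 0.155). Oasl2 was also not called without untreated aly replicate 1, untreated WT replicate 3 or treated WT replicate 2 (adjusted p = 0.0549 to 0.0729). With the spike-in sets as a block, all 5 were called (adjusted p = 0.00223 to 0.0372). Within replicates 2 and 3 the log2 changes were 1.76 to 3.44 and Oasl1 was the member called (3.40 ± 0.50, adjusted p = 0.00821). The number of all 34205 probe sets called higher moved too, from 88 in the main fit to 171 with the block and 42 within replicates 2 and 3. It was 16 without untreated aly replicate 3 and 28 without untreated aly replicate 2. Without treated aly replicate 2 it was 107, and without treated aly replicate 3 it was 122.

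**Figure D2:**
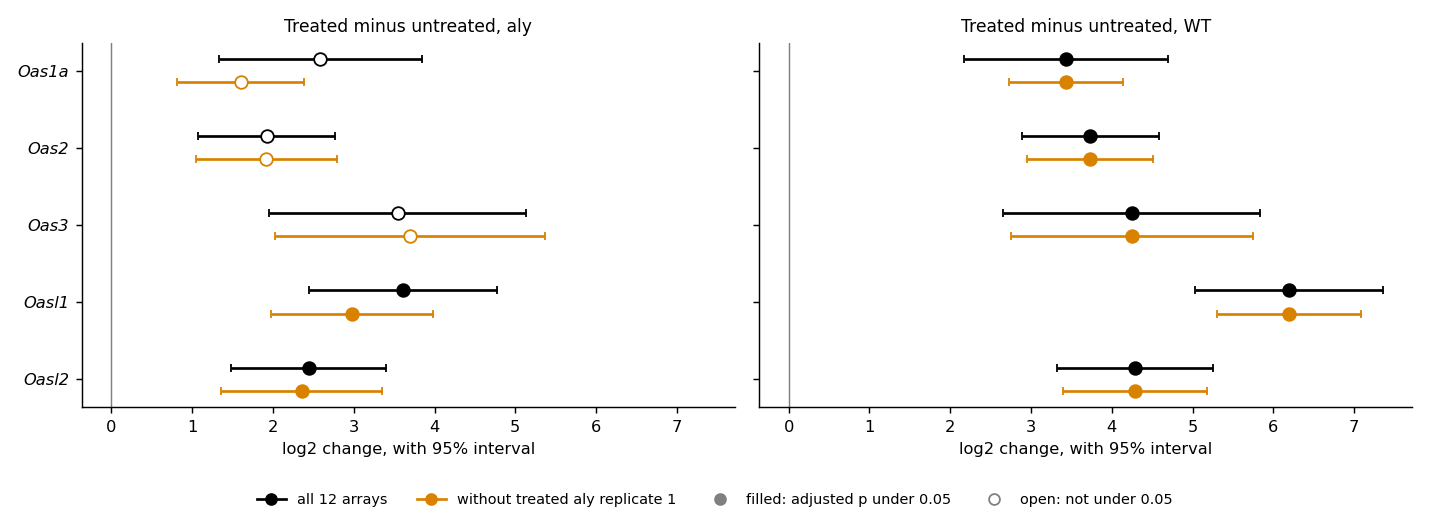
Log2 change of each OAS family member with treatment, in aly DCs (left) and WT DCs (right), with the 95% interval of the limma fit. Black points use all 12 arrays and orange points leave out treated aly replicate 1, and filled points have an adjusted p under 0.05. All 5 points are filled in WT, and in aly those of Oasl1 and Oasl2 are filled in both fits.

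Among treated DCs, Oas2, Oasl1 and Oasl2 were lower in aly than in WT, by 4.11-fold to 5.67-fold, and Oas1a and Oas3 did not pass the threshold. Over all probe sets tested, 2.01% were called lower in treated aly DCs. The median log2 difference of the 5 members was -2.04, against 0.21 over all probe sets. The per-array values are those given above.

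Oas2 averaged 540.8 ± 60.2 in treated aly DCs and 2344 ± 777 in treated WT DCs (SD, n = 3 each). All treated aly arrays lay below all treated WT arrays. The log2 difference was -2.04 ± 0.40 (4.11-fold, adjusted p = 0.0116), and without treated aly replicate 1 it was -2.04 ± 0.42 (adjusted p = 0.00837). It was -1.93 between the replicate 1 arrays and -2.09 within replicates 2 and 3, and treated aly replicate 1 lay between the other treated aly arrays.

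Oasl1 averaged 947 ± 770 in treated aly DCs and 4262 ± 735 in treated WT DCs (SD, n = 3 each). The groups did not overlap. The log2 difference was -2.50 ± 0.55 (5.67-fold, adjusted p = 0.0189), and without treated aly replicate 1 it was -3.14 ± 0.48 (8.81-fold, adjusted p = 0.00128).

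Oasl2 averaged 744 ± 335 in treated aly DCs and 3708 ± 1032 in treated WT DCs (SD, n = 3 each). The groups did not overlap. The log2 difference was -2.36 ± 0.46 (5.15-fold, adjusted p = 0.0105), and without treated aly replicate 1 it was -2.45 ± 0.47 (adjusted p = 0.00587).

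Oas1a depended on treated aly replicate 1. With that array it averaged 8831 ± 10626 in treated aly DCs and 8650 ± 1674 in treated WT DCs (SD, n = 3 each), the groups overlapped, and the log2 difference was -0.67 ± 0.60 (95% interval -1.93 to 0.59, adjusted p = 0.545). Without it the treated aly mean was 2697 ± 166 (SD, n = 2), both arrays lay below every treated WT array, and the log2 difference was -1.66 ± 0.38 (3.16-fold, adjusted p = 0.0152). Between the replicate 1 arrays the difference was 1.31, and within replicates 2 and 3 it was -1.66 (adjusted p = 0.047). The Actb ratio and hybridisation controls of that array, given above, moved with this value. So did the sum of 5 neutrophil markers on the array, of 6 listed, which was 14792.5 there, against 920.6 and 270 on the other treated aly arrays and 99.1 to 965.8 on treated WT arrays, and the highest sums of DC and plasmacytoid DC markers, 47108.1 and 3689. The part of each in the Oas1a value was not tested.

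Oas3 averaged 805 ± 200 in treated aly DCs and 1908 ± 1052 in treated WT DCs (SD, n = 3 each). The groups overlapped through treated WT replicate 2, at 696.5. The log2 difference was -1.04 ± 0.76 (95% interval -2.63 to 0.55, adjusted p = 0.452), and without treated aly replicate 1 it was -0.89 ± 0.80 (adjusted p = 0.615).

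Of the 5 members, 4 were called lower among treated DCs without treated aly replicate 1, against 2.34% of all probe sets. Without treated WT replicate 3 no member passed (adjusted p = 0.106 for Oas2, 0.126 for Oasl1 and 0.0959 for Oasl2, with log2 differences of -1.79, -2.37 and -2.17), and 88 of all probe sets passed in either direction, against 1297 with all arrays. Oasl1 was also not called without treated WT replicate 2 or treated aly replicate 2 (adjusted p = 0.0545 and 0.0706). Centring each array on its median turned the median of all probe sets in this comparison from 0.21 to -0.14, and Oas2, Oasl1 and Oasl2 were called lower there too. Of all 34205 probe sets, 927 were called lower and 165 higher with this centring, against 689 and 608 in the main fit. Between treated aly and treated WT DCs, 5 of 10 red pulp macrophage markers and 1 of 4 tested erythroid markers were called higher and none lower, and their part in the lower OAS values was not tested.

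Among untreated DCs no member differed between aly and WT in the limma fit, and none had an unadjusted p under 0.05 (0.276 to 0.884). Over all probe sets, 0.371% were called in either direction. Log2 differences were -0.51 ± 0.46 for Oasl2 (95% interval -1.48 to 0.45), -0.34 ± 0.76 for Oas3 (-1.93 to 1.25), -0.23 ± 0.40 for Oas2 (-1.08 to 0.62), 0.08 ± 0.55 for Oasl1 (-1.08 to 1.24) and 0.17 ± 0.60 for Oas1a (-1.09 to 1.43). All 5 genes overlapped between the genotypes, and these intervals leave room for differences of about 1 log2 unit or more either way in 3 of them. With treated aly replicate 1 left out no member was called either, against 1.97% of all probe sets. The macrophage and erythroid sums given above did not overlap between the untreated genotypes. Of 10 red pulp macrophage markers, 6 were called higher in untreated aly DCs. The part of these cells in the untreated OAS values was not tested.

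The responses of the genotypes were also set against each other directly, as the response of aly minus the response of WT. No member passed in the limma fit of all 12 arrays, in which 0.0497% of probe sets were called lower. The difference in response was -2.58 ± 0.78 for Oasl1 (95% interval -4.22 to -0.94, adjusted p = 0.417), -1.85 ± 0.65 for Oasl2 (-3.21 to -0.49, adjusted p = 0.515) and -1.81 ± 0.57 for Oas2 (-3.01 to -0.61, adjusted p = 0.43). It was -0.85 ± 0.85 for Oas1a and -0.70 ± 1.07 for Oas3, with intervals that include 0. Without treated aly replicate 1, 0.406% of probe sets were called lower, and Oasl1 was among them (-3.22 ± 0.64, adjusted p = 0.0278), while Oas1a was at -1.83 ± 0.51 (adjusted p = 0.124). Within replicates 2 and 3 the difference was -2.85 ± 0.71 for Oasl1 (adjusted p = 0.227). A smaller response in aly was therefore called for Oasl1 alone, and for that gene only with the one array left out or weighted down.

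**Figure D3:**
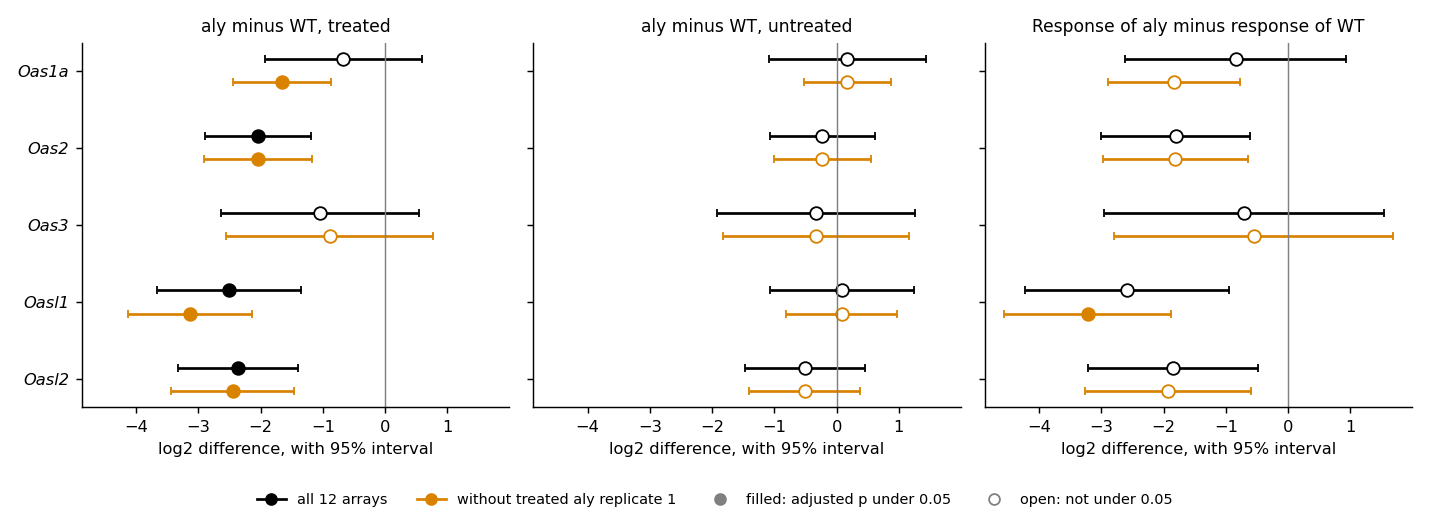
Log2 difference of each OAS family member between aly and WT among treated DCs (left), among untreated DCs (middle), and between the responses of aly and WT (right), with the 95% interval of the limma fit. Black points use all 12 arrays, orange points leave out treated aly replicate 1, and filled points have an adjusted p under 0.05. Oas1a is filled among treated DCs only in the fit without that array, and Oasl1 alone is filled in the right panel.

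In the order of group levels, treated WT DCs came first for each member by the mean of log2 values, treated aly DCs came next and the untreated groups last. The step between treated WT and treated aly was beyond the spread for Oas2, Oasl1 and Oasl2 in the fit of 12 arrays, and not for Oas1a and Oas3. The step between treated and untreated aly DCs was beyond the threshold for Oasl1 and Oasl2. The untreated groups were not separated for any member.

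Of 4 other Oas1 copies of the cluster on chromosome 5 that passed the filter, Oas1b was the one called. Oas1b, which RefSeq lists as a transcribed pseudogene, had intensities of 18.2, 116.2 and 65.5 in treated aly DCs and 48.5, 48.8 and 7.0 in untreated aly DCs, against 224.4, 161.0 and 431.0 in treated WT DCs and 34.7, 47.6 and 56.9 in untreated WT DCs. All treated WT arrays lay above the arrays of the other 3 groups. With treatment it rose in WT (2.11 ± 0.52, adjusted p = 0.0208) and was not called in aly (0.65 ± 0.52, adjusted p = 0.634) or between treated genotypes (-1.90 ± 0.52, adjusted p = 0.0521). Leaving out treated aly replicate 1 gave Oas1b 1.18 ± 0.48 in aly (adjusted p = 0.539) and -1.36 ± 0.48 between treated genotypes (adjusted p = 0.114). Oas1c, Oas1e and Oas1f were not called in any of the 5 comparisons, and Oas1h did not pass the filter. Oas1d and Oas1g have no probe set annotated to them alone.

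Of 3 listed genes that act beside the synthetases, Abce1, which encodes a factor that recycles ribosomes, fell in treated WT DCs (-1.50 ± 0.43, adjusted p = 0.044), and in aly its change was -0.91 ± 0.43 (adjusted p = 0.433). Pde12 and Akap7, whose products are phosphodiesterases that break 2-5A down, were not called in any comparison. The calls of these 3 genes were the same without treated aly replicate 1.

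The genes of interferon production and signalling were read from lists chosen with earlier results of these data known. Of 6 interferon genes past the filter, Ifng, the type II interferon, was called with treatment in WT (6.51 ± 0.77, adjusted p = 4.1e-05), and its change in aly was 3.69 ± 0.77 (adjusted p = 0.0535). Signals of 5 natural killer cell markers, a cell type known to make Ifng, summed to 199.6 to 530.2 on treated aly arrays and 152.4 to 615.6 on untreated aly arrays, against 456.8 to 1872.9 on treated WT arrays and 128.5 to 323.7 on untreated WT arrays, and their part in the Ifng values was not tested. Ifnb1, the early type I interferon of LPS-treated cells, was at 0.73 ± 0.46 in aly and -0.40 ± 0.46 in WT at 6 hours (adjusted p = 0.537 and 0.75). Ifna1, Ifna2, Ifna5 and Ifnab were not called in any comparison of the 12 arrays. Of 9 receptor and kinase genes, Tyk2 and Jak1, kinases that sit on the interferon receptors, rose with treatment in WT (1.66 ± 0.40 and 1.78 ± 0.51) and were lower in treated aly than in treated WT DCs (-1.79 ± 0.40 and -2.25 ± 0.51, adjusted p = 0.0192 and 0.021). The receptor genes Ifnar1, Ifnar2, Ifngr1 and Ifngr2 were not called in any comparison of the 12 arrays. With treated aly replicate 1 left out, Ifng was also called lower in treated aly DCs (-3.55 ± 0.65, adjusted p = 0.00426), Ifna1 was called higher (1.02 ± 0.32, adjusted p = 0.0405) and Ifngr1 lower (-2.09 ± 0.41, adjusted p = 0.00191) with treatment in WT, and Tyk2 and Jak1 were called as before. The type I interferon signals were low. On treated and untreated WT arrays Ifna1 averaged 29.8 and 7.03, and Ifnb1 19.9 and 30.8. The medians of WT arrays were 21.5 to 25.1.

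Of 9 STAT and IRF genes past the filter, 5 rose with treatment in WT DCs, none was called in aly DCs and 3 were lower in treated aly than in treated WT DCs. Irf7, the interferon gene regulator whose translation Oasl1 restrains, rose in WT (4.31 ± 0.41, adjusted p = 4.92e-06), had a change of 1.95 ± 0.41 in aly (adjusted p = 0.0553) and was lower in treated aly DCs (-2.20 ± 0.41, adjusted p = 0.00908). Stat2, a factor that acts at the ISRE, rose in WT (2.73 ± 0.45) and was lower in treated aly DCs (-1.86 ± 0.45, adjusted p = 0.0288). Irf4, a factor of DC maturation, was lower in treated aly DCs by the largest margin of the list (-2.72 ± 0.35, adjusted p = 0.00103). Irf9, the DNA-binding partner of Stat2, was not called in any comparison. Of 6 feedback genes, Socs3 was called higher in both genotypes (3.43 ± 0.46 in aly and 4.30 ± 0.46 in WT), while Usp18 and Socs1 rose in WT (3.06 ± 0.41 and 2.74 ± 0.37) and were lower in treated aly DCs (-2.12 ± 0.41 and -2.10 ± 0.37). Of these 2 lists, the fit without treated aly replicate 1 called Irf1 in addition, lower in treated aly DCs (-1.43 ± 0.36, adjusted p = 0.0255).

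The other interferon-stimulated genes followed the same order of counts. Of 20 past the filter, 18 rose with treatment in WT DCs, 2 rose in aly DCs, and 12 were lower in treated aly than in treated WT DCs, with none called in the opposite direction. The median log2 change of the 20 was 1.61 in aly and 3.37 in WT. Gbp2, a guanylate-binding protein gene, rose most in WT (5.69 ± 0.40), was lower in treated aly DCs (-2.64 ± 0.40) and was the 1 listed gene with a called difference in response (-3.96 ± 0.56, adjusted p = 0.0169). The RNA-binding antiviral gene Ifit1 and the ubiquitin ligase gene Herc6 were the 2 called in aly (2.88 ± 0.50 and 2.21 ± 0.40, adjusted p = 0.0193 and 0.0257). Mx1, an antiviral GTPase gene, had the largest difference between treated genotypes (-3.48 ± 0.49, adjusted p = 0.00187). The counts without treated aly replicate 1 were 19 higher in WT, 2 higher in aly and 14 lower in treated aly DCs, and 1, Rsad2, was called higher in untreated aly DCs (1.68 ± 0.35, adjusted p = 0.0153). In that fit 6 of the 20 had a called difference in response, with Rsad2 (-2.62 ± 0.52) and Ifi47 (-2.38 ± 0.50) next after Gbp2 by p.

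Of 12 other sensors of double-stranded RNA or of DNA, 5 rose and 1 fell with treatment in WT DCs, none was called in aly DCs, and 2 were lower in treated aly DCs. Ddx58, which encodes the RNA helicase RIG-I, rose in WT (2.58 ± 0.39) and was lower in treated aly DCs (-2.08 ± 0.39, adjusted p = 0.00908), as was its relative Dhx58 (2.43 ± 0.37 and -1.63 ± 0.37, adjusted p = 0.0218). The DNA sensor gene Ifi204 rose in WT (4.21 ± 0.47) and was not called between treated genotypes (-1.26 ± 0.47, adjusted p = 0.138). Tlr3, the endosomal receptor for double-stranded RNA, fell in WT (-3.30 ± 0.61, adjusted p = 0.00269). Eif2ak2, which encodes PKR, a kinase that double-stranded RNA switches on, was not called in any comparison of the 12 arrays. The fit without treated aly replicate 1 called 6 of the 12 higher and 2 lower with treatment in WT, none in aly, and 1 higher and 4 lower between treated genotypes, the higher one being Tlr3 (2.53 ± 0.54, adjusted p = 0.0106).

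**Figure D4:**
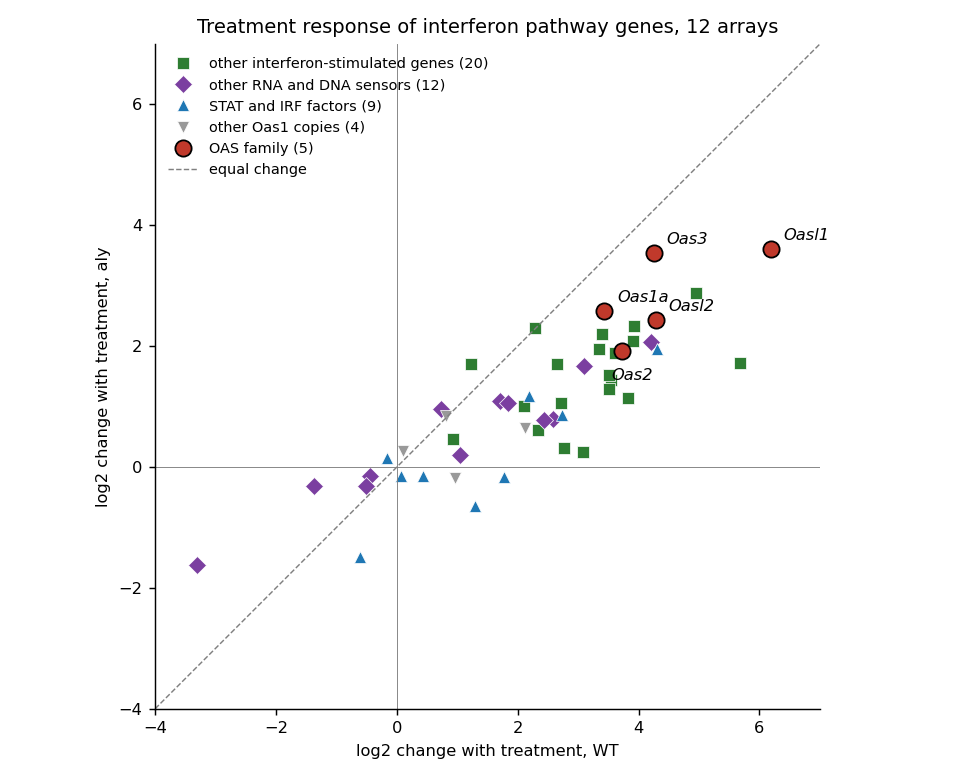
Log2 change with treatment in WT DCs (horizontal axis) against that in aly DCs (vertical axis) for the 5 OAS family members and 4 lists of related genes past the filter, over 12 arrays. Points below the dashed line had a lower log2 change in aly than in WT. All 5 members lie below the line, at 1.92 to 3.61 in aly and 3.43 to 6.19 in WT.

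Map3k14, the gene mutated in aly mice, checks nothing about the labels here, since a probe set reads transcript and not a point mutation. Its probe set with the highest mean had intensities of 81.8, 260.6 and 546.3 in treated aly DCs and 225.3, 154.7 and 121.0 in untreated aly DCs, against 461.9, 554.8 and 540.9 in treated WT DCs and 116.9, 204.9 and 148.1 in untreated WT DCs. That probe set was not called in any of the 5 comparisons (adjusted p = 0.0567 with treatment in WT, log2 change 1.66 ± 0.50). Another Map3k14 probe set past the filter had intensities of 109.6, 133.5 and 194.5 in treated WT DCs and 31.9, 40.4 and 48.5 in untreated WT DCs. It had 125.1, 54.6 and 117.5 in treated aly DCs and 66.9, 51.7 and 55.6 in untreated aly DCs. Its test results are not given here.

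Of 15014 other genes, those whose pattern was most like the mean standardised log2 value of the 5 members were H2-Q5, an MHC class I gene (Pearson r = 0.987 over 12 arrays and 0.986 without treated aly replicate 1), Adgrg6, an adhesion receptor gene (0.984 and 0.984 in those sets), Anxa2, which encodes the membrane-binding annexin A2 (0.980 and 0.979), Helz2, an interferon-stimulated helicase gene (0.977 and 0.982), and Ccr7, the lymph node homing receptor (0.977 and 0.975). These values describe arrays that fall into treated and untreated groups, which all genes share. Adgrg6 averaged 286 ± 141 in treated aly DCs and 30.4 ± 9.36 in untreated aly DCs, against 906 ± 259 in treated WT DCs and 21.1 ± 7.42 in untreated WT DCs (SD, n = 3 each), a pattern with the treated aly arrays between the treated WT and the untreated ones. Adgrg6 and Ccr7 were called lower in treated aly than in treated WT DCs (-1.67, adjusted p = 0.0282, and -1.83, adjusted p = 0.0166), and H2-Q5, Anxa2 and Helz2 were not (adjusted p = 0.153 to 0.242).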

How the data were processed

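Intensities of 45101 probe sets on 12 Affymetrix arrays were used as the authors deposited them, on a linear scale. Their 2% trimmed mean was 150.001 on every array. Which software and background correction produced them is not stated in these sources. All columns were matched to samples (0 unmatched), and no 2 arrays were identical. Of the probe sets other than 64 controls, 34945 carried 1 gene symbol, 932 several and 9160 none. Computed here were log2(intensity + 16), the filter (above the 40th percentile of the array on at least 3 arrays) and linear models in limma 3.58.1 (R 4.3.3), with 1 mean per group and Benjamini-Hochberg adjustment over 34205 probe sets in each of 5 contrasts. The fit was tested on simulated data before use. Promoters were searched with Python 3.11.15 and aligned with Biopython 1.88.

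The members and lists were chosen with earlier results of these data known. All members were named, with up to 4 genes of each list by smallest p, lists of 4 or fewer whole, and Map3k14. Of several probe sets of a gene, the one with the highest mean log2 value stood for it. The labels do not tie same-numbered replicates to a shared day or litter, and their deviations did not meet the criterion for pairing (every pair's correlation over 0.1), so the main fit has no block. Alternatives covered the offset, scaling, filter, probe sets per gene, blocks, array weights, arrays fitted and omission of each array. Replicates 2 and 3 alone were added after seeing the data.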

Additional observations from a re-analysis of the deposited data

How the results depend on the processing

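The 5 calls with treatment in WT DCs were made under each alternative. With treatment in aly DCs the members called, 2 with all arrays, were 0 with an offset of 1 or with only the groups compared, 1 with median centring, without the filter or with replicates 2 and 3 alone, 4 with array weights and 5 with the spike-in sets as a block, and 0 to 3 on leaving out 1 array. Of all probe sets, 6 were called with an offset of 1, 2 with only the groups compared and 68 with median centring. The count was 50 without the filter, 44 with replicates 2 and 3 alone, 175 with array weights and 181 with the spike-in sets as a block. Between treated genotypes the members called, 3 with all arrays, were 0 with an offset of 1 or with only the groups compared, and 0 to 4 on leaving out 1 array. Of all probe sets, 147 were called there with that offset and 20 with only the groups compared, against 1297 with all arrays. In the response difference, 0 with all arrays, 1 was called with array weights and 0 to 1 on leaving out 1 array. Array weights gave 372 calls over all probe sets in that comparison, against 17 with all arrays. Among untreated DCs none was called under any alternative, and the sign turned for Oas1a (-0.078 with median centring, -0.035 with replicates 2 and 3), Oas2 (-0.53 to 0.058 on leaving out 1 array), Oas3 (0.29 with array weights, -1.37 to 0.44 on leaving out 1 array, positive without WT untreated replicate 2 or aly untreated replicate 3) and Oasl1 (-0.17 with median centring, -0.16 with quantile normalization, -0.41 with replicates 2 and 3, -0.35 to 0.55 on leaving out 1 array). The response difference of Oas3 was -1.48 to 0.33 on leaving out 1 array, positive without aly untreated replicate 2. The cause of these shifts was not tested.

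Over all probe sets, median centring changed the share of calls that were higher from 46.9% to 15.1% between treated genotypes and from 58.5% to 71.7% with treatment in WT. Deviations of same-numbered arrays correlated at -0.02 to 0.30 (median 0.08), with 7 of 18 pairs over 0.1, against -0.25 to 0.19 (median -0.06) and 1 of 36 for arrays of different numbers. Not every pair passed 0.1, so the numbers were not taken as a pairing, though replicate 1 of every group shares low spike-in signals. With the replicate block the members called were 3 with treatment in aly, 5 with treatment in WT, 3 between treated genotypes, 0 between untreated genotypes and 0 in the response difference. The count over all probe sets moved from 94 to 127 with treatment in aly and from 2237 to 2591 with treatment in WT. It moved from 1297 to 1935 between treated genotypes, from 127 to 234 between untreated genotypes and from 17 to 27 in the response difference. Over all alternatives the count over all probe sets was 2 to 181 with treatment in aly (94 with all arrays), 920 to 5678 with treatment in WT (2237), 20 to 4165 between treated genotypes (1297), 0 to 867 between untreated genotypes (127) and 0 to 372 in the response difference (17). The number of arrays limits the precision.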
